A study of Mus musculus with 22 samples.

Results

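The T cell receptor genes of the mouse were followed in 3 organs, the thymus, the cerebrum and the cerebellum, with Tol mice set against their WT littermates. A row of the count tables was taken as a member when its GRCm38 symbol began with Trav, Traj, Trac, Trbv, Trbd, Trbj, Trbc, Trdv, Trdj, Trdc, Trgv, Trgj or Trgc, with a T cell receptor biotype in the annotation. Of the 34585 rows, 239 met this rule. They were 111 Trav, 60 Traj, 1 Trac, 35 Trbv, 2 Trbd, 14 Trbj, 2 Trbc, 6 Trdv, 2 Trdj, 1 Trdc, 1 Trgv and 4 Trgj rows. Another 17 annotated Trav genes were not listed, and each had only transcripts identical to those of a listed Trav gene. A further 14 rows carried a T cell receptor biotype under other symbols, among them the gamma constant genes Tcrg-C1 to Tcrg-C4, and these are given beside the members by that name.

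Tol mice are C57BL/6 mice heterozygous for the Tol transgene, a chimeric open reading frame of scrambled fragments of reporter and modifier genes. The transgene is driven by the ubiquitous CAG promoter from a site 3′ of Col1a1, and the strain descends from 1 line of C57BL/6J embryonic stem cells crossed to C57BL/6JRj mice. WT mice were littermates without it. There were 4 libraries of each genotype from thymus and 4 of each from cerebrum, while cerebellum had 2 from Tol and 4 from WT mice. The labels give neither age nor sex. The thymus comparison bears on whether continuous expression of foreign antigens changes the T cell receptor transcripts of the organ in which self-reactive T cells are deleted.

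The T cell receptor is a heterodimer whose chains are assembled from separate gene segments during T cell development. The RAG recombinase joins 1 variable (V), in some chains 1 diversity (D), and 1 joining (J) segment on the chromosome, and RNA splicing then links the joined segment to a constant (C) gene. In the thymus the beta, gamma and delta loci recombine first, in immature thymocytes without CD4 or CD8, and the alpha locus recombines later, in CD4+ CD8+ thymocytes. The delta genes lie inside the alpha locus and are lost from a chromosome when its alpha segments are joined. Unjoined segments are also transcribed, as germline transcripts, so that a count on a segment does not show a joined receptor.

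The joining segments are shown first because they carry the most recognisable sequence of a rearranged chain, the codons of the motif phenylalanine-glycine-any residue-glycine at which the J segment continues into the receptor's framework. The letters TTNGGNNNNGGN, which hold these codons, were searched on the strand of the gene and in its complement. They are wider than the motif, since a first codon of TTA or TTG encodes leucine, and the reading frame was not checked. They were found on the gene strand in 59 of the 80 J rows (73.8%), and on the other strand in 0. Of the 59 matches, 56 began with TTT or TTC, the codons of phenylalanine, and 3 with TTG, those of Traj44, Traj38 and the pseudogene Traj55. By class the letters were present in 44 of 51 Traj genes, 2 of 9 Traj pseudogenes, 11 of 13 Trbj genes, both Trdj genes, and 0 of 4 Trgj genes. A row without these letters can still encode a working J segment with another residue at that place. The sequences of the second beta cluster, which holds the J segments that lie upstream of Trbc2, follow from the GRCm38 transcripts, all on the plus strand, with the matched letters in capitals.
Trbj2-1, chr6:41542754-41542803: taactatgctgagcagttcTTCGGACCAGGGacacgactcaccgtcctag
Trbj2-2, chr6:41542957-41543007: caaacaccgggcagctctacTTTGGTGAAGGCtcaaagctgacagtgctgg
Trbj2-3, chr6:41543223-41543271: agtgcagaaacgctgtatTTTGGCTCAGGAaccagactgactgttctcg
Trbj2-4, chr6:41543362-41543410: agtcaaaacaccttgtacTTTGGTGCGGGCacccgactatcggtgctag
Trbj2-5, chr6:41543453-41543501: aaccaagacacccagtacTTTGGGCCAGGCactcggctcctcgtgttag
Trbj2-6, chr6:41543598-41543645: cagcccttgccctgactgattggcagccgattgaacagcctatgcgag
Trbj2-7, chr6:41543810-41543856: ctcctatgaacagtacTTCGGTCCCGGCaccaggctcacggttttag

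Trbj2-6, which the annotation calls a pseudogene, is the only one of these 7 without the letters. The 3 Traj genes with the highest mean CPM in WT thymus, and the Traj pseudogene with the highest, are shown for the alpha chain in the same way, also from the plus strand.
Traj2, chr14:54217836-54217901: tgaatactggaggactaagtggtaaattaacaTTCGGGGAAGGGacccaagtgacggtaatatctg
Traj23, chr14:54196081-54196140: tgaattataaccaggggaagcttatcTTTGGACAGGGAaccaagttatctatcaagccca
Traj22, chr14:54197248-54197307: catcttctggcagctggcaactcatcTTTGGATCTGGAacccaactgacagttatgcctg
Traj61, chr14:54155005-54155076: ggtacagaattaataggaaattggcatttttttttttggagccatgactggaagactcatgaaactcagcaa

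Library totals ran from 16319117 to 34776973 counts in thymus, from 14543698 to 23311643 in cerebrum and from 23340005 to 27057348 in cerebellum. Levels are given in CPM, counts divided by the TMM-scaled library size and expressed per 1e6, and per kilobase of the gene model where genes are compared with each other. The J rows are 29 to 72 bases long, near or below the length of a sequencing read. Their values per kilobase can therefore depend on row length, and stand beside those of V or C genes only with that limit. Below 3 counts in a library a gene was taken as not detectable there, a limit for counting error only. Values were compared by edgeR's quasi-likelihood test with Benjamini-Hochberg adjustment over all genes tested in the organ, and a gene was called at an adjusted p under 0.05. In thymus, each library's deviation from the mean of the 8 libraries followed gene length across 16199 genes, with Spearman's rho of 0.30 in the library Tol 1, from -0.38 to -0.27 in Tol 2 to Tol 4, and from 0.11 to 0.29 in the WT libraries. The genes are not independent replicates, and the part of this trend in the values below was not tested.

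Members took 0.412%, 0.491%, 0.482% and 0.465% of all counts in Tol thymi 1 to 4, and 0.406%, 0.412%, 0.428% and 0.433% in WT thymi 1 to 4. The beta chain held most of them. Of the member counts, 83.1% to 85.5% in Tol and 81.1% to 82.6% in WT thymus fell on beta rows, 10.8% to 12.6% and 13.2% to 14.9% on alpha rows, and 3.36% to 4.01% and 3.54% to 4.37% on delta rows. The 5 gamma rows that met the rule held under 0.45% in every thymus. This share leaves out the gamma constant genes, which lie outside the rule, while the other 3 shares include their constant genes. The gamma share is therefore not on the same footing as the others. The alpha, the beta and the gamma shares of Tol and WT thymi did not overlap (gamma 0.269% to 0.369% and 0.420% to 0.443%), and the delta shares did. Shares are parts of the same total, so they are not separate results. In summed CPM the alpha rows (512 to 599 in Tol, 567 to 599 in WT) and the beta rows (3474 to 4282 and 3255 to 3623) overlapped. The gamma rows (13.5 to 15.5 and 17.8 to 19.0) did not.

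Trbc2, the constant gene of the second beta cluster (chr6:41546730-41548352), had the highest level of all members in thymus, whether in CPM or per kilobase. Its level was 1506, 1993, 1837 and 1793 CPM in Tol thymi 1 to 4, and 1489, 1453, 1557 and 1573 CPM in WT thymi 1 to 4. Tol 2 to Tol 4 lay above all WT thymi, and Tol 1 lay among them. Trbc1, the constant gene of the first cluster (chr6:41538218-41539881), was at 1039, 1319, 1222 and 1185 CPM in the Tol and 965, 945, 1062 and 1095 CPM in the WT thymi, with the same library among the WT values. Tol over WT, the log2 fold change came to 0.23 (SE 0.08, adjusted p = 0.137) for Trbc2 and 0.23 (SE 0.08, adjusted p = 0.138) for Trbc1, neither past the threshold. In bulk tissue, fewer cells of a type and less RNA per cell cannot be told apart. The transcripts of the pair share sequence, with 44.8% of the 31-base stretches of Trbc1 also present in Trbc2, so that reads can be divided between them. Trbc1 held 39.3% to 41.05% of the Trbc counts in each of the 8 thymi.

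Trac, the constant gene of the alpha chain (chr14:54220521-54224206), was at 342, 387, 417 and 353 CPM in Tol and 381, 405, 392 and 384 CPM in WT thymi, with a log2 fold change of -0.06 (SE 0.07, adjusted p = 0.647). Trdc, the constant gene of the delta chain (chr14:54142851-54148868), was at 148, 153, 143 and 157 CPM in Tol and 132, 125, 164 and 142 CPM in WT thymi (log2 fold change 0.09, SE 0.08, adjusted p = 0.495). For both genes the values of the genotypes overlapped. Per kilobase, the WT mean was 2193 CPM for Trbc2, 1357 for Trbc1, 418 for Trac and 36.4 for Trdc. The 4 gamma constant genes, which lie outside the rule, summed to 107 to 140 CPM in the Tol thymi, and the WT thymi had 137 to 164 CPM, with overlap.

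**Figure D1:**
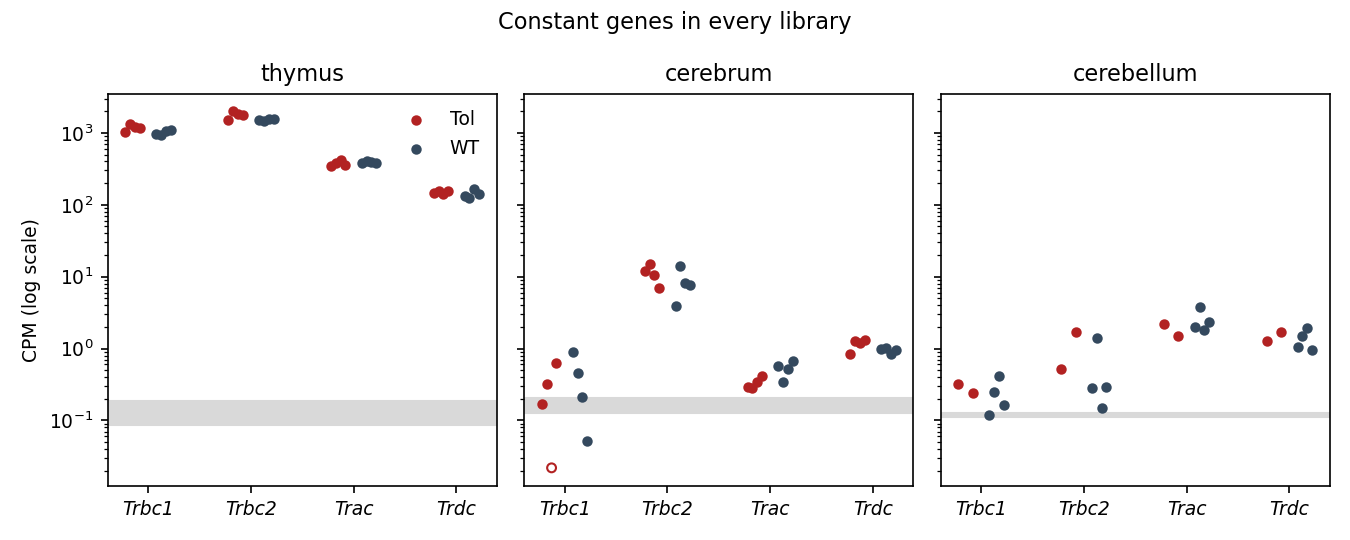
CPM of Trbc1, Trbc2, Trac and Trdc in every library on a log axis, with thymus, cerebrum and cerebellum in separate panels, Tol in red and WT in dark blue. The grey band is the level of 3 counts over the organ's libraries and the open symbol a library with 0 counts. In thymus all 4 genes lie between 125 and 1993 CPM, in cerebrum Trbc2 stands above the other 3, and in cerebellum Trac is higher than in cerebrum while Trbc2 is lower.

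Variable segments of the beta chain were far apart in level, and their order was kept between genotypes. Among the 22 Trbv rows annotated as genes, the WT mean ran from 0.924 (Trbv21) to 275 CPM per kilobase (Trbv13-2), with a median of 76.3, while the 13 pseudogene rows had a median of 0.084 CPM per kilobase. Trbv13-1 and Trbv15 followed Trbv13-2 at 142 and 135 CPM per kilobase. Trbv24 was the pseudogene with the highest level, 7.70 CPM per kilobase in WT thymus. Across the 35 rows the rank correlation between the WT and the Tol mean was 0.991 (Spearman's rho, across genes that share libraries). Trbv13-2 was at 94.7, 90.6, 96.9 and 91.9 CPM in Tol and 90.2, 91.7, 94.0 and 98.4 CPM in WT thymi. These groups overlapped throughout (log2 fold change -0.0010, SE 0.05, adjusted p = 0.993).

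Of the 22 Trbv rows that passed the expression filter, 17 had a higher and 5 a lower fitted level in Tol, with a median log2 fold change of 0.08 against 0.007 over all genes tested. Of all genes tested, 51.4% had a higher level in Tol, and rows measured in the same libraries are not independent. Trbv15 had 56.0, 57.5, 55.1 and 52.7 CPM in Tol and 50.5, 48.7, 49.99 and 51.2 CPM in WT thymi, so that its groups did not overlap (log2 fold change 0.14, SE 0.05, adjusted p = 0.143). Trbv29 had the lowest p of the class, with 33.9, 34.6, 33.5 and 29.7 CPM in Tol and 25.8, 27.3, 28.3 and 30.2 CPM in WT thymi (log2 fold change 0.24, SE 0.07, adjusted p = 0.111). WT 4 lay above Tol 4 for this gene. Along the chromosome, the Trbv rows in 3 blocks of 12, 12 and 11 rows held 33.0% ± 0.79, 55.5% ± 0.55 and 11.5% ± 0.34 of Trbv counts in Tol, and 33.1% ± 0.42, 55.9% ± 0.44 and 10.98% ± 0.30 in WT thymi (SD, n = 4 each), from 5′ to 3′.

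Joining segments of the beta chain also differed widely, and the second cluster held more counts than the first. Trbj2 rows held 58.2% to 59.8% of all Trbj counts in Tol and 58.7% to 59.3% in WT thymi. Trbj2-7, the last segment before Trbc2, had the highest level per kilobase of the Trbj rows (683 CPM in WT). It was at 31.2, 32.8, 35.8 and 31.9 CPM in Tol and 28.1, 29.8, 33.8 and 36.7 CPM in WT thymi. The groups overlapped (log2 fold change 0.03, SE 0.09, adjusted p = 0.856). Trbj2-3 and Trbj2-1 followed at 431 and 427 CPM per kilobase, with WT means of 21.1 ± 0.60 and 21.4 ± 2.16 CPM (SD, n = 4), which lay closer to each other than the WT mice did for Trbj2-1. Their log2 fold changes were 0.12 (SE 0.07, adjusted p = 0.296) and 0.16 (SE 0.08, adjusted p = 0.235).

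Trbj2-6, printed above without matched letters, was counted in every thymus. It was at 2.98, 2.26, 3.34 and 2.73 CPM in Tol and 4.46, 4.38, 3.53 and 4.14 CPM in WT thymi. All 4 Tol values lay below all WT values (log2 fold change -0.54, SE 0.16, adjusted p = 0.0964). Trbj1-6 and Trbj1-7, the Trbj genes without the letters, had WT means of 287 and 59.1 CPM per kilobase, and the 11 with it had a median of 311, as a description with no test. The 2 Trbd rows, diversity segments of 12 and 14 bases, had 0 counts in all 22 libraries. They are far shorter than a sequencing read, so these counts cannot show whether the segments were transcribed.

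**Figure D2:**
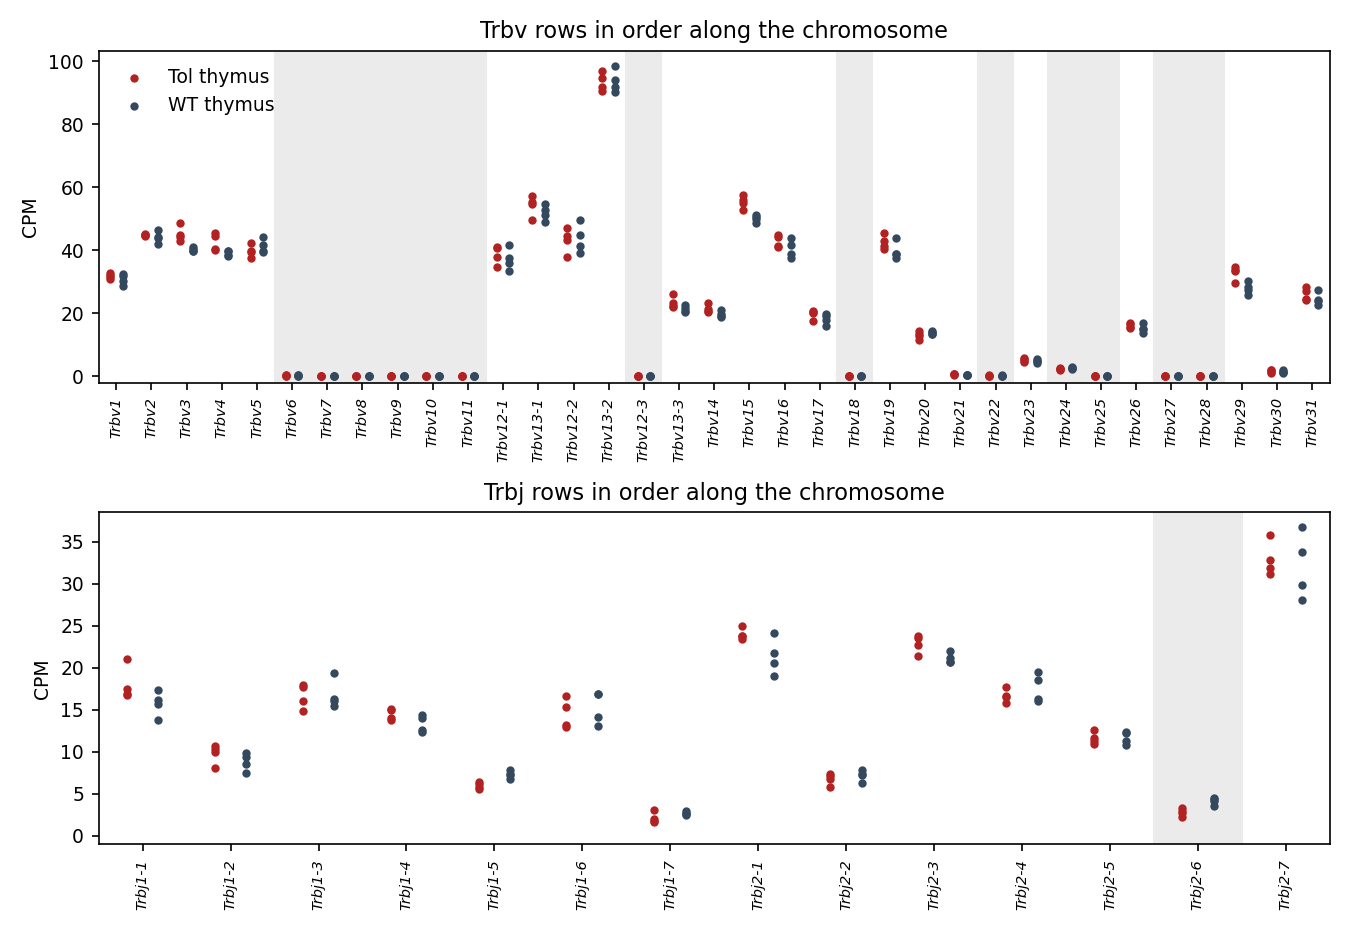
CPM of each Trbv row (upper panel) and Trbj row (lower panel) in the 8 thymus libraries, in order along the chromosome, with Tol in red, WT in dark blue, and rows annotated as pseudogenes shaded grey. Trbv13-2 stands above all other Trbv rows at 90.2 to 98.4 CPM, the shaded Trbv rows lie near 0, and the shaded Trbj2-6 has lower values in all Tol than in all WT thymi.

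Alpha variable segments were individually low. The 93 Trav rows annotated as genes had WT means up to 13.6 CPM per kilobase (Trav14d-1), with a median of 3.38, and the 18 pseudogene rows had a median of 0.162 CPM per kilobase, Trav8-2 being the highest of these at 4.02. The 3 with the highest mean CPM were Trav14d-1, Trav14d-2 and Trav9d-3, whose symbols with a d mark copies in a duplicated block of the locus. Trav14d-1 was at 4.53, 5.12, 5.32 and 4.57 CPM in Tol and 4.52, 6.48, 6.31 and 5.29 CPM in WT thymi (log2 fold change -0.21, SE 0.14, adjusted p = 0.388). Trav14d-2 and Trav9d-3 had log2 fold changes of -0.17 (SE 0.14, adjusted p = 0.465) and -0.27 (SE 0.19, adjusted p = 0.409), also with overlapping groups. Summed over all 111 rows, Trav levels in the Tol thymi were 127 to 145 CPM, and those in the WT thymi 150 to 161 CPM, with no overlap.

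Of the 80 Trav rows that passed the filter, 22 had a higher and 58 a lower fitted level in Tol, with a median log2 fold change of -0.20. Among all genes tested 51.4% were higher in Tol, and the Trav rows share libraries and in part sequence, so they are not independent. Trav12-1 (chr14:53538191-53538738) was at 1.31, 0.935, 1.21 and 0.994 CPM in Tol and 1.84, 1.65, 1.73 and 1.88 CPM in WT thymi, again with no overlap (log2 fold change -0.66, SE 0.19, adjusted p = 0.0957). Trav7-1 was at 0.321, 0.495, 0.435 and 0.348 CPM in Tol and 0.614, 0.852, 0.681 and 0.730 CPM in WT thymi (log2 fold change -0.87, SE 0.26, adjusted p = 0.102). In 3 blocks of 37 rows from 5′ to 3′, the median log2 fold change was -0.34, -0.19 and -0.09. Only the 25, 26 and 29 rows that passed the filter entered these medians. The blocks held 27.9% ± 2.24, 31.1% ± 0.85 and 40.9% ± 2.60 of Trav counts in Tol and 29.7% ± 1.57, 31.5% ± 1.09 and 38.7% ± 1.51 in WT thymi (SD, n = 4 each), and their ranges overlapped.

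Traj segments had few counts each, with a WT mean of at most 1.62 CPM for a single gene (Traj2). Per kilobase the 51 Traj genes had a median of 11.1 CPM and a maximum of 24.6. The 44 Traj genes with the letters had a median of 11.5 CPM per kilobase and the 7 without it a median of 2.06, as a description with no test. The 9 pseudogenes had a median of 1.08 CPM per kilobase, with Traj61, printed above, at 11.9. Traj rows are 29 to 72 bases long, the shortest being a pseudogene, and the part of row length in these medians was not tested. Traj2 was at 1.84, 0.935, 1.26 and 1.24 CPM in Tol and 2.23, 1.31, 1.48 and 1.46 CPM in WT thymi (log2 fold change -0.26, SE 0.26, adjusted p = 0.558). Traj23 was at 1.84 CPM in Tol 1 against 0.660 to 0.845 CPM in the other Tol thymi, while WT thymi ran from 0.765 to 1.93 CPM. Traj22 had a log2 fold change of -0.35 (SE 0.26, adjusted p = 0.426).

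Of 33 Traj rows tested, 11 had a higher and 22 a lower fitted level in Tol, against 51.4% higher among all genes tested. The median log2 fold change of the Traj rows was -0.17. By position, the median was 0.07 in the 5′ block, which is joined first in development, -0.17 in the middle block and -0.22 in the 3′ block next to Trac. These medians rest on 9, 11 and 13 tested rows, while the shares of counts below use all rows. The 5′ block held 25.9%, 32.7%, 27.4% and 30.9% of Traj counts in Tol thymi 1 to 4 and 27.5%, 25.7%, 25.8% and 23.9% in WT thymi 1 to 4. The 3′ block held 36.3%, 29.8%, 32.6% and 37.3% in Tol and 36.8%, 36.9%, 38.0% and 36.3% in WT thymi. In both blocks 1 or more Tol thymi lay among the WT values.

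The delta and gamma segments were few. Trdv2-2, Trdv5 and Trdv1, the delta variable genes with the highest mean, had WT means of 5.12 ± 0.87, 4.89 ± 0.70 and 3.05 ± 0.64 CPM (SD, n = 4) and log2 fold changes of -0.19, -0.10 and 0.01 (adjusted p from 0.434 to 0.973). Trdj1 was at 5.93, 5.61, 5.95 and 6.31 CPM in Tol and 5.47, 5.57, 8.41 and 5.81 CPM in WT thymi, where WT 3 stood apart (log2 fold change -0.08, SE 0.15, adjusted p = 0.782). Trdj2 did not pass the filter and lay between 0 and 0.371 CPM.

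Trgv2, a gamma variable gene (chr13:19336573-19337167), had the lowest p of all members. It was at 10.6, 7.98, 9.24 and 8.15 CPM in Tol and 11.5, 11.3, 12.1 and 12.4 CPM in WT thymi, with no overlap (log2 fold change -0.39, SE 0.11, adjusted p = 0.0862). Trgj2 had a log2 fold change of -0.33 (SE 0.14, adjusted p = 0.184), with 2.45 to 3.14 CPM in the Tol thymi, and 3.34 to 3.71 CPM in the WT thymi. Trgj4 and Trgj1 had log2 fold changes of -0.39 (SE 0.23, adjusted p = 0.320) and 0.0053 (SE 0.22, adjusted p = 0.990). Among the gamma constant genes, Tcrg-C4 was at 19.7, 20.7, 21.9 and 21.4 CPM in Tol and 27.95, 28.2, 23.3 and 30.3 CPM in WT thymi (log2 fold change -0.40, SE 0.09, adjusted p = 0.0733). Tcrg-C1, Tcrg-C2 and Tcrg-C3 had log2 fold changes of -0.18, -0.19 and -0.89 (adjusted p = 0.309, 0.197 and 0.132).

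Over all classes, 161 of the 239 members passed the filter in thymus, and 0 were called by edgeR, against 16 of 16248 genes tested (0.0985%). At an unadjusted p under 0.05 there were 19 members (11.8%), 5 higher and 14 lower in Tol, against 24.4% of all genes tested, 13.3% higher and 11.1% lower. DESeq2 called 1 member, Trgv2 (adjusted p = 0.0364), of the 56 to which it gave an adjusted p, against 9.79% of all genes. For 14 members (8.70%) the Tol and WT values did not overlap, against 11.8% of all genes, 5.81% with higher and 5.95% with lower Tol values. The median log2 fold change of the members tested was -0.10.

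**Figure D3:**
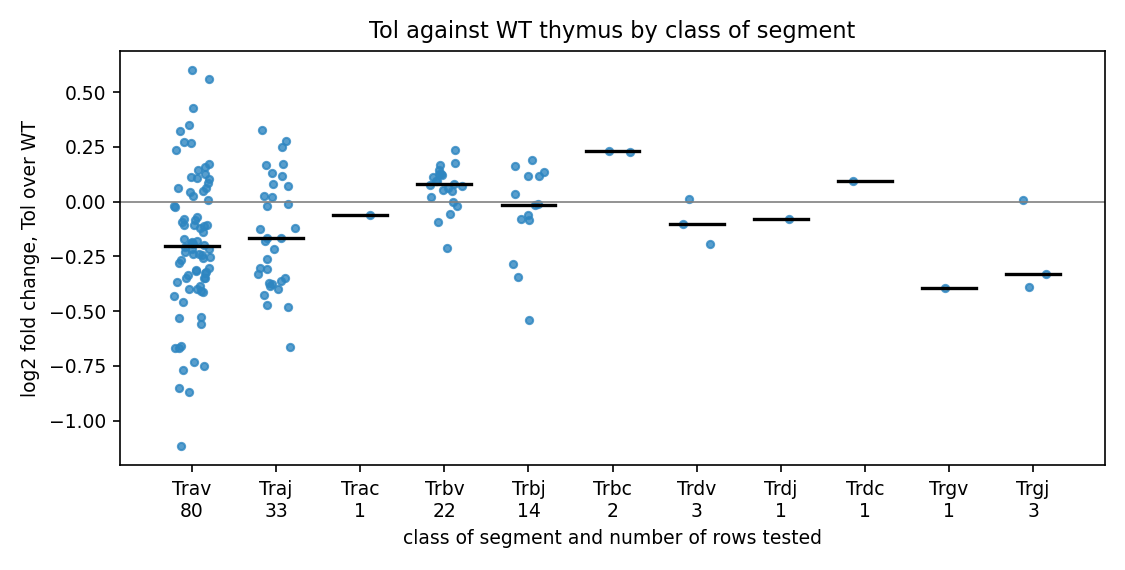
Log2 fold change, Tol over WT thymus, for each member that passed the filter, by class, with the number of rows under each name and the median as a black bar. Trav and Traj medians lie at -0.20 and -0.17, Trbv at 0.08 and Trbc at 0.23, and 0 points passed the adjusted threshold.

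The number of calls changed most when the library Tol 1 was left out, among the members and over all genes, and the reason was not tested. Without Tol thymus 1, edgeR called 5 of 163 members (3.07%), against 2978 of 16370 genes (18.2%). Trbc1 and Trbc2 were then higher in Tol, with log2 fold changes of 0.30 (SE 0.07, adjusted p = 0.0174) and 0.31 (SE 0.06, adjusted p = 0.00970). Trbv3, named after its value was seen, had a log2 fold change of 0.20 (SE 0.06, adjusted p = 0.0359). Trgv2 and Trav12-1 were lower, with log2 fold changes of -0.48 (SE 0.09, adjusted p = 0.0107) and -0.75 (SE 0.21, adjusted p = 0.0340). Leaving out any other thymus library gave 0 calls among the members.

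Counts on variable segments were also related to those on the constant gene of the same chain within each library, a measure that does not depend on library size. Per 100 Trbc counts there were 28.6, 23.2, 24.4 and 23.7 Trbv counts in Tol thymi 1 to 4 and 27.96, 28.2, 27.2 and 27.8 in WT thymi 1 to 4. Tol 1 was above all WT thymi and the other 3 Tol thymi were below them. Per 100 Trac counts there were 41.3, 32.8, 34.8 and 37.3 Trav counts in Tol and 39.3, 38.6, 38.8 and 41.8 in WT thymi, in the same arrangement except that Tol 1 lay among the WT values. Traj per 100 Trac ran from 6.44 to 12.1 in Tol and from 8.81 to 9.37 in WT thymi. The 3 Tol libraries with low ratios are those with a negative length trend, in which longer genes stood lower relative to the other libraries. Annotated Trbv and Trav genes have median lengths of 366 and 359 bases. Trbc genes have 692 and 749 bases and Trac 935, so the variable genes are the shorter ones. The part of that trend in the ratios was not tested. Across the 16199 genes, the fitted log2 fold change had a rank correlation of -0.34 with gene length.

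**Figure D4:**
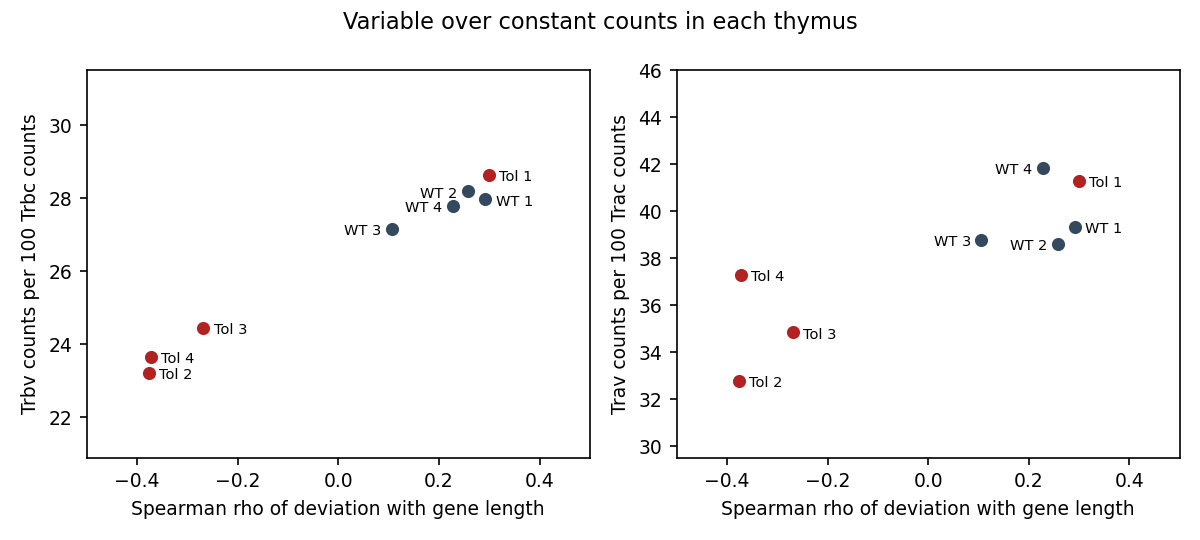
Trbv counts per 100 Trbc counts (left) and Trav counts per 100 Trac counts (right) of each thymus, against the rank correlation of that library's deviation with gene length, with Tol in red and WT in dark blue. Tol 2, Tol 3 and Tol 4 lie at negative rho with 23.2 to 24.4 Trbv counts per 100 Trbc counts, and Tol 1 lies with the WT thymi at positive rho.

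Some Trav rows can only be read together with their copy. In 5 pairs of rows, more than 90% of the 31-base stretches of 1 row were present in the other. For Trav11d and Trav11, which share 99.7%, the counts of a library fell on 1 row of the pair in all thymi but Tol 1, Trav11d having 12, 34, 56 and 0 counts in Tol and 0 in each WT thymus. Trav11 had 85, 0, 0 and 35 counts in Tol and 40, 59, 29 and 72 in WT thymi. Their sum stayed between 1.74 and 3.35 CPM, with a coefficient of variation over the 8 thymi of 24.1% against 173% for the more variable member alone. The pairs Trav7d-2 with Trav7-2 and Trav7n-6 with C920008G01Rik alternated in the same way, and Trav12d-3 with Trav12n-3 in part. Trav5d-3 and Trav5n-3 had 1 count in all 8 thymi. With each pair summed before the fit, an alternative chosen after seeing the data, 0 of 159 members were called.

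**Figure D5:**
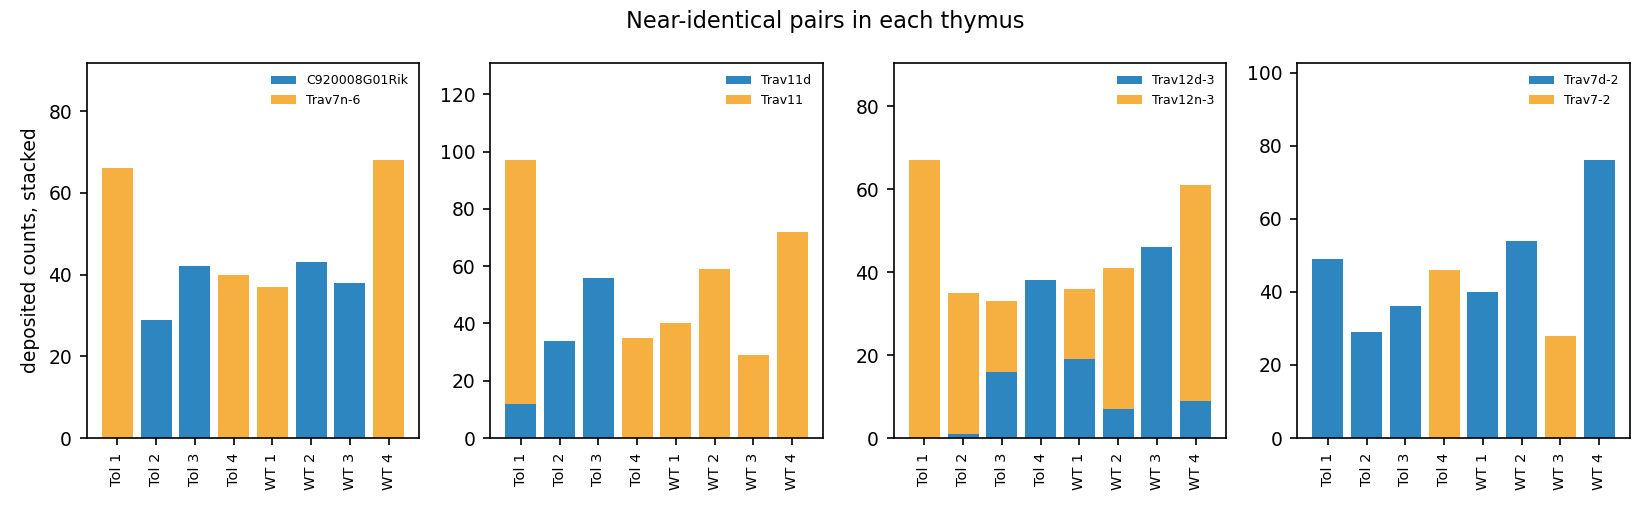
Deposited counts of 4 pairs of near-identical Trav rows in each thymus, stacked, with 1 panel per pair and 1 colour per row (C920008G01Rik is a T cell receptor variable gene under another symbol). Within Trav11d and Trav11, counts fall on Trav11 in all WT thymi and on Trav11d in Tol 2 and Tol 3, while the stack stays above 0 in every library.

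The genes that assemble, accompany and regulate the receptor were taken from lists. In thymus 0 of 5 genes of the CD3 complex and pre-T cell receptor, 0 of 14 of V(D)J recombination and end joining, 0 of 3 coreceptors, 0 of 15 regulators of the receptor loci and 0 of 15 of proximal receptor signalling were called, with medians of 0.09, 0.09, -0.02, -0.06 and -0.06 (log2) and 2, 7, 0, 2 and 6 genes at an unadjusted p under 0.05, which 24.4% of all genes tested had. The member of each list with the lowest p was Cd3d, a chain of the CD3 complex (log2 fold change 0.33, SE 0.10, adjusted p = 0.0989), Rag1, the catalytic subunit of the recombinase (-0.44, SE 0.13, adjusted p = 0.0927), Cd8a (0.07, adjusted p = 0.603), the transcription factor Tcf7 (-0.26, SE 0.07, adjusted p = 0.0943) and the adhesion receptor Cd2 (0.22, SE 0.07, adjusted p = 0.113). Rag1 was at 4607, 3402, 4502 and 3107 CPM in Tol and 5399, 5160, 4846 and 5784 CPM in WT thymi. All Tol values were below all WT values. In the order given above, 5, 11, 1, 5 and 5 genes of the lists had a higher fitted level in Tol. A lower one was found for 0, 3, 2, 10 and 10, while 51.4% of all genes tested were higher. Rag1, Cd8a and Cd2 thus ran against most of their list.

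Of these genes with the lowest p, DESeq2, which called 9.79% of all genes, called Cd3d, Rag1, Tcf7 and Cd2. Lists of other cells had 0 called genes in thymus by edgeR as well. Summed levels were 156 to 171 CPM in the Tol and 165 to 173 in the WT thymi for gamma delta and innate-like T cells, 34.0 to 41.2 and 32.5 to 42.4 for NK cells, 83.6 to 92.0 and 86.3 to 115 for B cells, and 1973 to 2273 and 1952 to 2128 for thymic epithelium. They were 512 to 734 and 561 to 673 CPM for myeloid and dendritic cells, 182 to 262 and 118 to 281 for red blood cells, and 31.3 to 40.9 and 30.9 to 46.0 for neurons. Of the members of these lists with the lowest p, Il17rb, Pax5, Xcr1, Klrd1, Epcam, Hba-a1 and Gad1, adjusted p ran from 0.0844 (Il17rb) to 0.498 (Hba-a1), and DESeq2 called Il17rb and Pax5. At an unadjusted p under 0.05 there were 3 of 9 genes of the gamma delta list, 0 of 5 of NK cells, 3 of 8 of B cells, 4 of 10 of thymic epithelium, 3 of 10 of myeloid cells, 0 of 5 of red blood cells and 1 of 7 of neurons, against 24.4% of all genes. The genes whose level over the 8 thymi was most like that of Trac were Gm13392, Tpbg, Hacd3, Tlr2 and B4galt7 (Pearson's r of log2(CPM + 1) from 0.94 to 0.97), and most like Trdc were Dlat, Azin1, Pinx1, Sfxn1 and Amn (0.97 to 0.98), the highest of all tested genes and given as a description.

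In cerebrum, 179 of the 239 members had 0 counts in all 8 libraries, and members took 162 to 404 counts per library. Most of these, 1588 of 2161, were from Trbc2. It had 284, 323, 247 and 100 counts in Tol and 84, 249, 155 and 146 counts in WT cerebra, or 11.96, 15.03, 10.6 and 6.89 CPM and 3.95, 14.05, 8.09 and 7.64 CPM. The groups overlapped over most of their range. Only Trbc2 and Trdc passed the filter, and neither was called (0 of 2, against 0.0% of 15596 genes by edgeR, 9.66% at an unadjusted p under 0.05 with 0 of the 2, and 183 genes by DESeq2). The log2 fold change was 0.41 (SE 0.35, adjusted p = 0.754) for Trbc2 and 0.28 (SE 0.21, adjusted p = 0.741) for Trdc, which had 16 to 28 counts per library.

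The partners of Trbc2 were sparse in cerebrum. Trbc1 had 4, 7, 0 and 9 counts in Tol and 19, 8, 4 and 1 in WT cerebra, 3.17% of all Trbc counts (Wilson 95% interval 2.43% to 4.13%), against 40.2% in the thymus libraries together. WT 1 alone had 18.4%. Of 92 Trbj counts, 84 (91.3%, Wilson 95% interval 83.8% to 95.5%) were on the second cluster printed above, against 59.0% in thymus, with Trbj2-3 and Trbj2-7 leading at 29 and 27 counts. Trbv rows had 33 counts, or 2.01 per 100 Trbc counts, against 26.4 in thymus. Trac had 6 to 13 counts per library, 68 in all, and Trav9d-4, the Trav row with the most, 51. The 5 genes of the CD3 and pre-T cell receptor list summed to 0.994 to 2.07 CPM in cerebrum, with 3 to 12 counts of Cd3e per library, against 1627 to 1991 CPM in thymus. Trbc2 had 700 to 6225 counts per 100 Cd3e counts in cerebrum and 273 to 343 in thymus. All intervals cover counting error only.

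In cerebellum, 175 members had 0 counts in all 6 libraries, and Trac was the leading one. It had 56 and 38 counts in Tol and 50, 91, 49 and 56 counts in WT cerebella, or 2.22 and 1.52 CPM and 1.99, 3.83, 1.83 and 2.32 CPM. WT 2 had the highest value and Tol 2 the lowest. Trdc had 32 and 42 counts in Tol and 26, 36, 52 and 23 in WT cerebella. Trbc2 had 13 and 43 counts in Tol and 7, 33, 4 and 7 in WT cerebella, with Tol 2 and WT 2 apart from the rest. Tol 2 also stood apart in genes of neurons and of the regulator list, named after their values were seen. Slc17a7, a glutamate transporter of neuronal vesicles, was at 19.3 CPM in Tol 2 and 248 to 540 CPM in the other 5 cerebella, the transcription factor Bcl11b at 42.4 against 1.20 to 12.5 CPM, and Gata3 at 17.6 against 0.158 to 3.23 CPM. The part of these differences between libraries in the Trbc2 values was not tested. Of the members, Trac, Trdc and Trbc2 passed the filter, and 0 of these 3 were called (against 0.0% of 16662 genes by edgeR, 3.16% at an unadjusted p under 0.05 with 0 of the 3, and 9 genes by DESeq2). The log2 fold changes were -0.41 for Trac (SE 0.39, adjusted p = 0.957), 0.11 for Trdc (SE 0.38, adjusted p = 0.975) and 1.084 for Trbc2 (SE 0.95, adjusted p = 0.957). Without Tol 2 the log2 fold change of Trbc2 was -0.023, and without WT 2 it was 2.17. Simulated 2-fold changes went uncalled in the comparison of all 6 cerebella, with 0 of 200 genes recovered.

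Trav counts in cerebellum varied widely between libraries. Per 100 Trac counts there were 5.36 and 76.3 Trav counts in Tol and 18, 39.6, 22.4 and 7.14 in WT cerebella, a range that spans the 38.5 of the pooled thymus libraries, with Tol 2 and WT 2 highest. Traj rows had 19 counts in all 6 libraries. In cerebrum, with 68 Trac counts in all, there were 215 Trav counts per 100 Trac counts. Cd3e had 3 to 13 counts per library, and the CD3 and pre-T cell receptor list summed to 0.911 to 1.77 CPM. Trac had 377 to 1867 counts per 100 Cd3e counts in cerebellum, 100 to 433 in cerebrum and 62.8 to 76.1 in thymus. The gamma constant genes had at most 3 counts in any cerebrum or cerebellum. In the brain organs edgeR called 0 genes of any of the 12 lists. Summed over the NK cell list, the 2 Tol cerebella had 1.12 to 11.7 CPM, and the 4 WT cerebella 25.1 to 58.0 CPM. Its only tested gene was Eomes, also a gene of unipolar brush neurons, and Eomes made up most of each sum. Alone it reached 11.6 and 0.758 CPM (Tol 1 and Tol 2), against a WT range of 24.3 to 57.6 CPM. Other genes of the list had at most 7 counts in any cerebellum, so a change in NK cells was not tested.

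WT cerebellum and WT cerebrum were compared directly for the members that passed the filter, 4 libraries each, after the pattern had been seen. Trbc2 was lower in cerebellum, with a mean of 0.527 ± 0.58 CPM against 8.43 ± 4.18 CPM in cerebrum (SD, n = 4 each), a log2 fold change of -4.14 (SE 0.67, edgeR adjusted p = 0.00110). Trac was higher in cerebellum, at 2.49 ± 0.91 against 0.526 ± 0.14 CPM, a log2 fold change of 2.08 (SE 0.32, edgeR adjusted p = 0.000891). For both genes the values of the organs did not overlap. Trdc was at 1.36 ± 0.46 and 0.945 ± 0.08 CPM (log2 fold change 0.38, SE 0.27, edgeR adjusted p = 0.263). In this comparison 49.8% of 15877 genes were called, 25.6% higher and 24.2% lower in cerebellum. Both calls held without any single library, at -5.27 to -3.78 for Trbc2 and 1.78 to 2.22 for Trac, and the value for Trbc2 was -5.27 without WT cerebellum 2. The labels do not say whether libraries of different organs with the same number come from 1 mouse.

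Set against thymus, the WT mean of Trbc2 was 180-fold higher in thymus than in cerebrum and 2883-fold higher than in cerebellum, or 6339-fold without WT cerebellum 2. For Trac the ratios were 742 and 157, and for Trdc 149 and 103. Trbc1 was 4288-fold higher in thymus than in cerebellum, where it had 24 WT counts. Leaving out 1 WT cerebellum gave ratios from 3680 to 5675. Against cerebrum it was 2533-fold higher, or 4281-fold without WT cerebrum 1, which held 19 of the 32 WT counts. CPM were scaled within each organ and not over the organs together, a limit on all these ratios.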

How the data were processed

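Stranded libraries of poly(A)-selected RNA were made from frozen thymus, cerebrum and cerebellum. Per the submitters' processing notes, the authors used Salmon 0.14.1, GRCm38 and edgeR 3.9. The deposited values are estimated counts (expected counts) per gene, given as whole numbers and not normalized, from Ensembl cDNA with the Tol transcript added. How transcripts were summed to genes, and the annotation release, are not given in the sources used here.

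Symbols, biotypes, lengths, positions and transcript sequences came from GENCODE vM21 on GRCm38, which held 34465 of 34584 identifiers. The members, lists and tests were chosen with earlier results of these data known. Each organ was fitted alone with edgeR 4.0.16 in R 4.3.3 (TMM, filterByExpr with a minimum count of 10, quasi-likelihood F test, Benjamini-Hochberg over all genes passing the filter), with Tol left out of the background counts. DESeq2 1.42.0 was an alternative. Shares and ratios were computed from counts in Python 3.11.15. The scripts were tested on simulated data with 200 changed genes. At a 2-fold change, 80% of these were recovered with the thymus libraries, 70% with those of cerebrum and 0% with those of cerebellum. At a 4-fold change the shares were 94%, 96% and 64.5%, in the same order. False calls numbered from 0 to 18. A lack of calls in cerebellum therefore does not exclude changes of 2-fold. The 200 genes were drawn at random from all genes passing the filter, and the simulated counts carried no length trend. The shares recovered were not measured for the members, many of which are low (WT thymus median 1.26 CPM for Trav and 0.67 for Traj genes).

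Named genes were the constant genes; the 3 highest of each class by mean CPM in WT thymus; in each organ any member called and the 5 members with the lowest p; in each brain organ the 3 members with the most counts; the gene with the lowest p in each list; and the 5 genes most like Trac and Trdc. Others are named by their place in a count or for a copy, after their values were seen. Lists covered the CD3 complex and pre-T cell receptor, V(D)J recombination, coreceptors, regulators of the loci, receptor signalling, gamma delta T cells, NK cells, B cells, thymic epithelium, myeloid cells, red blood cells and neurons.

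Every pair of libraries in a group differed by more than counting noise, the chi-square over its degrees of freedom being 4.98 at the lowest and 208 at the highest, and each library counts as 1 replicate. The labels do not say how mice were chosen, so p-values set a difference against the spread between these samples only. Library totals set the precision, and 3 counts were taken as the floor.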

Additional observations from a re-analysis of the deposited data

Results flagged for a closer look

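In 102 groups of 4 libraries, 7 values stood apart from the other 3 by Dixon's criterion (6.86%), where chance gives about 1 in 20. The cause was not tested for any of them. Trbc1 held 40.8% of the Trbc counts in Tol thymus 1, against 39.8% to 40.0% in the other Tol thymi, a gap that is small in size. The gamma rows held 0.420% of the member counts in WT thymus 4, against 0.440% to 0.443% in the other WT thymi. Tcrg-C3 was at 1.21 CPM in Tol thymus 3, against 0.555 to 0.660 CPM in the other Tol thymi. Traj23 was at 1.84 CPM in Tol thymus 1, against 0.660 to 0.845 CPM, and Trdj1 at 8.41 CPM in WT thymus 3, against 5.47 to 5.81 CPM in its group.

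In the brain, Trbc1 held 18.4% of the Trbc counts in WT cerebrum 1, which had the fewest Trbc2 counts of its group, against 0.680% to 3.11% in the other WT cerebra. Trbc2 was at 1.39 CPM in WT cerebellum 2, against 0.149 to 0.290 CPM in the other WT cerebella. That library also had the highest level of Trac in cerebellum, 3.83 CPM, and the highest summed Trav level, 1.51 CPM.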

How the results depend on the processing

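Members called in thymus numbered 0 under 7 of 8 alternatives and 1 with DESeq2, and from 0 to 5 when 1 library was left out, the 5 being without Tol thymus 1. In cerebrum and cerebellum, where few members could be tested, the count was 0 in each setting, which says nothing about stability. With the replicate block the thymus count was 0 of 161 members, as in cerebrum and cerebellum, and 11 instead of 19 members had an unadjusted p under 0.05. Same-numbered Tol and WT thymi are different mice, and their deviations correlated between -0.18 and 0.07 (cerebrum from -0.41 to 0.49, cerebellum -0.21 and 0.68). In both brain organs the highest correlation was that of replicate 2. The labels do not say whether samples with the same number share a litter or a batch. Over all genes in thymus, 16 were called in the analysis reported, 130 with no filter, 85 with at least 10 counts in every library, 38 with robust moderation, 29 with all 22 libraries in 1 fit, 5 with the block, 1252 with DESeq2, and from 0 to 2978 with 1 library left out. For WT cerebellum against WT cerebrum, leaving out 1 library gave -5.27 to -3.78 for Trbc2, 1.78 to 2.22 for Trac and 0.14 to 0.50 for Trdc.

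Among single genes, 3 values near 0 changed sign between settings: Trgj1 was at -0.0018 with DESeq2 and -0.0061 with at least 10 counts in every library, and Trbv13-2 at 0.0075 with no filter. Leaving out 1 library, the sign changed for Trbv13-2 (-0.018 to 0.026), Trbj2-7 (-0.022 to 0.109), Trdv1 (-0.066 to 0.174), Trdj1 (-0.138 to 0.091), Trgj1 (-0.083 to 0.159) and, in cerebellum, Trbc2 (-0.023 to 2.17) and Trdc (-0.11 to 0.33), where an arm of 1 Tol library is assumed to vary like the others. Of the named genes in thymus, 8 values passed the threshold under DESeq2, Tcrg-C4 (adjusted p = 0.00517) and Trgv2 among them, and 13 without Tol thymus 1. Counting per kilobase or leaving out pseudogenes moved 18 of 48 locus shares, 2 of 24 block shares and 2 of 12 Trbc1 shares by more than 1 SD. Members below 3 counts cannot be compared at this depth.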
